A study of Mus musculus with 2 samples.

Results

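The genes described here are the 4 type 2 cytokines Il4, Il13, Il5 and Il31, the receptor chains Il4ra, Il13ra1, Il13ra2 and Il31ra, and the transcription factor Stat6, that is 9 of the 33904 genes in the count matrices. They were taken by symbol, and each symbol matched 1 row in both libraries, with no use of measured values. Their unique molecular identifiers (UMIs, each the tag of 1 captured RNA molecule) were followed through marker-gated cell types of mouse dorsal skin to show which cells held the cytokine transcripts and which held the receptors.

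The data were single-cell RNA-seq counts from 1 control library (Ctrl) and 1 library of atopic dermatitis-like skin (AD). Both came from depilated back skin of female C57BL/6J mice that were 7 weeks old. In AD, 4.5 nmol of MC903 was put on a 2 cm × 2 cm area every day for 10 days, and in Ctrl the same area received ethanol alone, with collection on day 10 in both. MC903 (calcipotriol) is a vitamin D analogue whose repeated application to mouse skin is widely used as a model of atopic dermatitis, and it is a model in which the inflammation follows from a chemical applied to normal skin. How many mice entered each library is not given in the sources used here. With 1 library per condition no difference between Ctrl and AD could be tested. Each interval below covers counting error only, not the spread between cells or between animals.

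After filtering, 11399 Ctrl and 8179 AD cells remained, with medians of 7813 and 6330 UMIs per cell, and the libraries had 35 barcode sequences in common. Marker gates gave a cell type to 80.3% of Ctrl and 63.0% of AD cells, 302 and 102 cells passed several gates, and 1949 and 2921 passed none. Members played no part in the gates. Counts in cells are given as CPM, the counts scaled to a fixed UMI total of that cell type, and since the assay tags the 3′ end of transcripts, levels were compared for 1 gene across cell types and not between genes.

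IL-4 and IL-13 are the defining cytokines of type 2 immunity, which is directed at helminths and is misplaced in allergy and atopic dermatitis. IL-4 binds IL-4Rα (Il4ra), which pairs with the common γ chain (Il2rg) on blood cells to form the type I receptor, or with IL-13Rα1 (Il13ra1) on other cells to form the type II receptor that also takes IL-13, and both receptors activate STAT6 through JAK kinases. IL-13Rα2 (Il13ra2) binds IL-13 without a signalling tail of that kind and is known as a decoy. IL-5 supports eosinophils, and IL-31 is an itch cytokine that signals through IL-31RA paired with the oncostatin M receptor (Osmr).

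Il4 (ENSMUSG00000000869), Il13 (ENSMUSG00000020383) and Il5 (ENSMUSG00000036117) lie in 1 cluster on mouse chromosome 11. In GRCm38 with the GENCODE M21 annotation, Il4 spans chr11:53602982-53618669 on the minus strand, Il13 spans chr11:53631324-53634702 on the minus strand, and Il5 spans chr11:53720794-53725106 on the plus strand. The gap between Il4 and Il13 is 12654 bases and that between Il13 and Il5 is 86091 bases. Il31 (ENSMUSG00000029437) lies apart from them at chr5:123480157-123489489 on the minus strand. Of these 4 genes, Il5 overlaps Gm12214 and Il31 overlaps Lrrc43, each annotated on the opposite strand.

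The 250 bases before the starts of the 3 clustered genes are shown as a description, and any link to UMI counts was not tested. They are RefSeq sequences of GRCm38.p6, written 5′ to 3′ on the gene's own strand, and all 9 members had an entry. Capitals mark GGAAA or its reverse complement TTTCC, the core of the element bound by NFAT, the calcium-driven factor that switches on cytokine genes in activated lymphocytes, basophils and mast cells. They are, in turn, chr11:53618666-53618915 (minus strand), chr11:53634703-53634952 (minus strand) and chr11:53720544-53720793 (plus strand).
Il4: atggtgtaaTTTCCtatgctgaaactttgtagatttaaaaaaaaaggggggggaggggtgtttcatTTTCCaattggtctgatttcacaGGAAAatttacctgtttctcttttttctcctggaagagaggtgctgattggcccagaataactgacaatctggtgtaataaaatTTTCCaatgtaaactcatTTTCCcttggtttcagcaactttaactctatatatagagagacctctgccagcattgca
Il13: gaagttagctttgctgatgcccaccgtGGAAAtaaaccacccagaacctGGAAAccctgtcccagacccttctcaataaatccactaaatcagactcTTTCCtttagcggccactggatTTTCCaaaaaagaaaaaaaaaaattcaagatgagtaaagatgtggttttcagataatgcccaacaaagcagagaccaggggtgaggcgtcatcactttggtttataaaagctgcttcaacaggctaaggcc
Il5: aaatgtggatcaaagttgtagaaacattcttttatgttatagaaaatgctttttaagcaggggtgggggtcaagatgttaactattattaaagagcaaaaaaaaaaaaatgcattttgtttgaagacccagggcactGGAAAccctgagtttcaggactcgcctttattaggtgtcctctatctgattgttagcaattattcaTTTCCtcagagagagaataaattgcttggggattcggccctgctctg
The Il4 window held 5 of these matches, the Il13 window 4 and the Il5 window 2. Of 32841 windows of the same length before annotated starts, 55.6% held at least 1 match on either strand, 21.4% at least 2, 1.59% at least 4 and 0.390% at least 5. GATA, the core read by GATA factors, was found once in the Il13 window, once in the Il5 window and not in the Il4 window, against 53.6% of all windows. TTC and GAA set 4 bases apart, the spacing that STAT6 prefers, were found once in the Il4 window and in 5.85% of all windows. That Il4 match shares the letters GGAA with 1 of the capitalised GGAAA matches, so the pair is not independent. RefSeq also lists a second Il4 start inside the gene, and the window before it, at chr11:53617339-53617588, held 3 GATA, no GGAAA and no TTC and GAA at that spacing, so the Il4 counts hold for the printed start alone. A match is a description of letters and not of binding.

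In Ctrl skin most Il4 lay in mast cells. Of 133 Il4 UMIs in the kept Ctrl cells (1.26 CPM over the library), 88 lay in 53 of 127 mast cells, a share of 66.2% (57.5 to 74.1, exact binomial interval). The mast cells, tissue-resident granulocytes that release histamine and proteases, held Il4 at 348 CPM (279 to 428, exact Poisson interval), and no mast cell had more than 5 UMIs. They were shallow, with a median of 1648 UMIs per cell, 21.1% of the library median, but mast cell proteases led their profile. The 9 Ctrl basophils, circulating relatives of mast cells that enter inflamed tissue, held 16 Il4 UMIs, 12 of them in 1 cell. The 510 Ctrl T cells held 2 Il4 UMIs.

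In AD skin most Il4 lay in basophils. The AD library held 1072 Il4 UMIs in 157 cells (17.4 CPM), and 686 of them, 64.0% (61.0 to 66.9), lay in 22 of 39 basophils, at 2953 CPM (2736 to 3183). T cells held 183 Il4 UMIs in 66 of 396 cells at 65.6 CPM (56.5 to 75.9), or 17.1% of the library's Il4, and mast cells held 57 in 22 of 45 cells at 419 CPM (318 to 543), or 5.32%. The basophil level was above those of mast cells and of T cells with intervals that did not overlap, and the mast cell level was above that of T cells. These intervals do not cover the spread between cells, and 68.1% of the basophil Il4 UMIs lay in 5 cells.

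As a measure of Il4 RNA outside its sources, 8 of 3037 AD fibroblasts held 1 Il4 UMI each, 0.324 CPM (0.140 to 0.638). No Il4 UMI was counted in the 205 AD macrophages or the 65 AD dendritic cells. An Il4 UMI was found in 56.4% of AD basophils, 48.9% of mast cells, 16.7% of T cells and 0.263% of fibroblasts, at median depths of 5399, 2353, 5882 and 7059 UMIs per cell. The share in fibroblasts, the deepest of these 4 types, was the lowest.

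Ctrl Il13, unlike Ctrl Il4, had no gated cell type with most of its UMIs. Of its 102 UMIs (0.970 CPM), T cells held 36 in 24 cells, 35.3% (26.1 to 45.4), mast cells 21 in 19 cells and the innate lymphoid gate 11 in 6 of 78 cells. This group was gated on markers of innate lymphoid cells with Cd3e, Cd3d, Cd3g and Trac under the marker level. Trdc was not used against it, so cells with Trdc could enter. In Ctrl its leading genes included Il7r, Icos and Cd69, with 1 of its own markers among the first 10, so it is called by its gate. Its Ctrl cells held T cell transcripts, with 4 Cd3e UMIs in 5.13% of cells, 36 Trdc UMIs in 14.1% and 13 Foxp3 UMIs in 12.8%, and no Trac UMI. In AD the gated cells held no Cd3e, 8 Trdc UMIs in 11.8% of cells and 1 Foxp3 UMI. The first 10 genes of the AD group included Calca, Il7r, Klrk1 and Il17a. Per cell type, Il13 stood at 83.0 CPM (51.4 to 127) in mast cells, 50.8 CPM (25.3 to 90.8) in the innate lymphoid gate and 20.3 CPM (14.2 to 28.1) in T cells. Mast cells and the innate lymphoid gate did not differ beyond counting error, and T cells stood below mast cells.

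In AD, basophils also held the largest gated share of Il13. They had 354 of 602 Il13 UMIs, 58.8% (54.8 to 62.8), in 24 of 39 cells at 1524 CPM (1369 to 1691), and the share was 46.9% when all deposited barcodes were gated. T cells held 92 in 39 of 396 cells at 33.0 CPM (26.6 to 40.5), mast cells 22 in 10 of 45 cells at 162 CPM (101 to 245), and the innate lymphoid gate 8 in 4 of 34 cells at 61.5 CPM (26.6 to 121). As for Il4, the intervals for counting error put basophils above mast cells and mast cells above T cells. AD fibroblasts lay at 0.364 CPM of Il13. For Il4, the innate lymphoid gate held 7 UMIs at 53.8 CPM in AD and 1 UMI at 4.61 CPM in Ctrl.

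**Figure D1:**
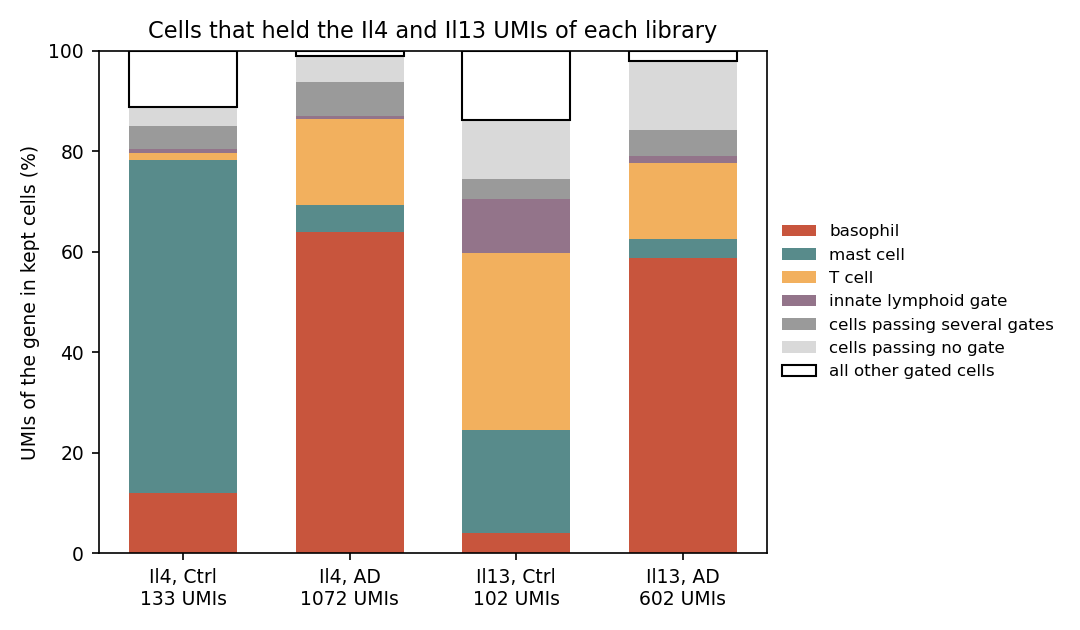
Share of the Il4 and Il13 UMIs of each library, in percent of the UMIs in kept cells, by the cells that held them, with 1 bar per gene and library. Mast cells made up 66.2% of the Ctrl Il4 bar, and basophils made up 64.0% of the AD Il4 bar and 58.8% of the AD Il13 bar.

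The AD basophils were few, and their transcripts were set beside those of mast cells and T cells. The gate required Mcpt8, the basophil protease, and also counted Cd200r3, Fcer1a, Ms4a2, Gata2, Hdc and Cyp11a1, so these genes cannot check it. Cells that reached the marker level of at least 2 mast cell genes were left out, so mast cell genes check it in part. Of the mast cell genes, Tpsb2 and Kit were at 0 UMIs and Mcpt4 had 1 UMI. Cpa3, a carboxypeptidase, had 42 UMIs in 48.7% of cells at 181 CPM, against 13460 CPM in AD mast cells. Of T cell genes, Cd3e had 1 UMI and Trac none. Where the gate lies decided part of the share: with a marker counted at 0.05 instead of 0.1 of its high level, 35.1% of AD Il4 and 46.3% of AD Il13 lay in basophils. In the gate as used, 4 cells that passed both the basophil and the neutrophil gate held a further 61 Il4 UMIs, and 5 cells that passed no gate but had most markers of basophils held 32.

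Single basophils differed by a wide margin. Among the 22 AD basophils with Il4, counts ran from 1 to 194 UMIs with a median of 13, and the next cell below 194 had 80. Of the basophil Il4, 68.1% lay in 5 cells, and without the cell of 194 UMIs the basophil share of AD Il4 was 56.0%. For Il13 the highest cell had 75 UMIs, the median of the 24 cells with Il13 was 9, and 62.4% of the basophil Il13 lay in 5 cells. For each cytokine most basophil transcripts therefore lay in 5 cells, but these were not the same 5 cells for both.

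Some basophils held both Il4 and Il13, but not at a fixed ratio. In AD, 15 of 39 basophils held both, 7 held Il4 alone, 9 held Il13 alone and 8 held neither. The 15 cells with both carried 74.2% of basophil Il4 and 71.5% of basophil Il13. The basophil with 194 Il4 UMIs had 4 of Il13, whereas the basophil with 75 Il13 UMIs had 3 of Il4. In AD T cells 24 cells held both, 42 Il4 alone and 15 Il13 alone, and in AD mast cells the counts were 7, 15 and 3.

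**Figure D2:**
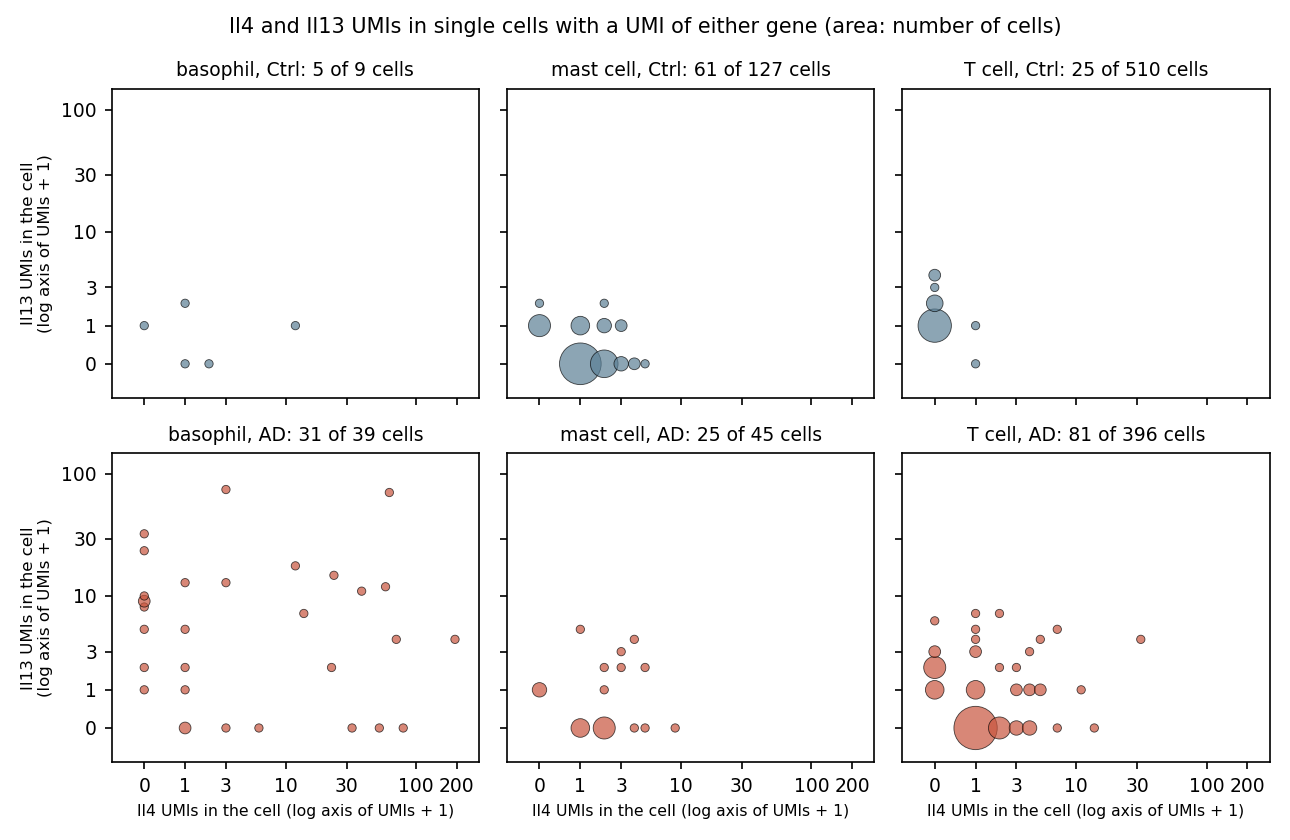
Il4 UMIs (x axis) and Il13 UMIs (y axis) in each cell with a UMI of either gene, on log axes of UMIs + 1, for basophils, mast cells and T cells of Ctrl (top) and AD (bottom), with point area for the number of cells. AD basophils reached 194 Il4 and 75 Il13 UMIs, whereas no mast cell of either library had more than 9 Il4 UMIs.

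Between the libraries, basophils went from 9 of 11399 Ctrl cells to 39 of 8179 AD cells, so too few were captured in Ctrl for a ratio, and more cells and more RNA per cell cannot be told apart in the library totals. Mast cells went the other way, from 127 to 45 cells, and their Il4 was counted at 348 and 419 CPM. On the log2 scale AD exceeded Ctrl by 0.27, and the exact conditional interval of this ratio, −0.24 to 0.77, included 0. Il13 in mast cells stood at 83.0 and 162 CPM (log2 ratio of AD to Ctrl 0.96, interval 0.03 to 1.90). In T cells, Il4 went from 1.13 to 65.6 CPM (log2 ratio 5.86, interval 3.99 to 8.92), and the share of T cells with an Il4 UMI in a draw of 1000 UMIs per cell went from 0.138% to 3.69%. T cell Il13 went from 20.3 to 33.0 CPM (log2 ratio 0.70, interval 0.13 to 1.30). T cells were sequenced deeper in AD (5882 against 3048 UMIs per cell at the median), and scaling them by the median gene would raise each of their log2 ratios by 0.17.

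Set against all genes, 1.51% of the 8562 genes with at least 10 CPM in T cells of either library were at least 2-fold higher in AD after 10 CPM were added to both values, and 1 of 4 members with that level was among them, Il4. In mast cells 9.72% of genes passed the same rule, and 1 of 5 members, Il4ra. The high background in mast cells goes with small sums of 253096 and 135888 UMIs.

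The T cells that held the cytokines differed between Ctrl and AD in their other transcripts. In Ctrl, 27 of the 36 T cell Il13 UMIs lay in 17 of the 136 cells with a Trdc UMI and no Trac UMI, at 56.0 CPM (36.9 to 81.5). Trdc encodes the constant part of the δ chain of γδ T cells and Trac that of the α chain, and the 75 Ctrl cells with Cd4 but no Foxp3 held 1 Il13 UMI. In AD, 138 of the 183 T cell Il4 UMIs, 75.4% (68.5 to 81.5), lay in 52 of the 126 cells with Cd4 and without Foxp3, at 122 CPM (103 to 145), and so did 73 of the 92 Il13 UMIs, in 26 cells. Of these 138 Il4 UMIs, 32 lay in 1 cell, a spread between cells that the intervals do not cover.

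Regulatory and cytotoxic T cells held almost none. The 47 AD T cells with Foxp3, the factor of regulatory T cells, had 1 Il4 UMI, in 2.13% of cells (exact binomial interval up to 11.3%), and none of Il13, which allows a share of up to 6.38% of cells with a UMI. The 46 with Cd8a and no Cd4 had none of either, which allows up to 6.52%. The 61 AD cells with Trdc and no Trac had 1 Il4 and 8 Il13 UMIs. A further 43 Il4 UMIs lay in 12 of 116 T cells outside these classes, in which a missed Cd4 UMI cannot be told from absence. Since 1 UMI decides each class, these are classes of detected transcripts and not of sorted cells.

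Il5 and Il31 were barely captured. Il5 had 10 UMIs in 7 Ctrl cells, 6 of them in 3 cells that passed no gate, and 4 UMIs in 4 AD cells, of which 2 were fibroblasts. No Il5 UMI lay in the 396 AD T cells, 39 basophils or 45 mast cells, which allows up to 0.758%, 7.69% and 6.67% of these cells with a UMI. Il31 had 1 UMI in Ctrl, in a fibroblast, and 2 in AD, in 1 T cell and 1 fibroblast. At this depth neither cytokine could be assigned to a source, and neither could be compared between the libraries.

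On the receiving side, Il4ra (ENSMUSG00000030748, chr7:125552120-125579474, plus strand), the chain common to both receptors, was detected in nearly every cell type and had the higher value in AD in each of the 11 types compared here. Over all kept cells the Ctrl level was 65.2 CPM and the AD level 167 CPM. In AD the highest levels were in mast cells at 228 CPM (155 to 324), blood endothelial cells at 217 (193 to 242), fibroblasts at 212 (206 to 218), macrophages at 211 (188 to 235) and neutrophils at 198 (141 to 271), and these 5 did not differ beyond counting error. Next came the innate lymphoid gate at 177 CPM, Langerhans cells at 171, NK cells at 147, T cells at 128 and dendritic cells at 119. Lymphatic endothelial cells at 63.7, Schwann cells at 59.6, adipocytes at 42.4, pericytes or smooth muscle cells at 40.5 and basal keratinocytes at 39.8 were lower. AD basophils, the main holders of Il4, had 38.7 CPM (17.7 to 73.5), from 9 UMIs in 7 cells.

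Among immune cells, the log2 ratio of AD over Ctrl for Il4ra was 1.85 (0.94 to 2.82) in mast cells, where it went from 63.2 to 228 CPM. It was 1.54 (1.11 to 1.97) in dendritic cells, from 41.1 to 119 CPM, and 0.92 (0.66 to 1.19) in macrophages, from 111 to 211 CPM. T cells, at 106 and 128 CPM, gave 0.27 (0.01 to 0.53), NK cells, at 101 and 147 CPM, gave 0.54 (−0.35 to 1.40) and the innate lymphoid gate, at 138 and 177 CPM, gave 0.35 (−0.50 to 1.18). The mast cell and dendritic cell intervals lay above that of T cells, and so did that of macrophages, except that it overlapped once each type was scaled by its median gene (T cell log2 ratio 0.45, macrophages 0.93). In Langerhans cells, the dendritic cells of the epidermis, Il4ra stood at 39.5 CPM in 57 Ctrl cells and 171 CPM in 13 AD cells, too few for a ratio.

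Among tissue cells, Il4ra went from 15.6 to 39.8 CPM in basal keratinocytes (log2 ratio 1.35, interval 1.04 to 1.66). RNA from fibroblasts could carry 4.63 CPM of the AD value, by the level of 5 fibroblast genes in those keratinocytes, and 12.1 CPM of the AD value in pericytes or smooth muscle cells, 7.19 in blood and 6.78 in lymphatic endothelial cells. Lymphatic endothelial cells went from 27.7 to 63.7 CPM (1.20, 0.71 to 1.72), pericytes or smooth muscle cells from 24.9 to 40.5 CPM (0.70, 0.11 to 1.30) and fibroblasts from 113 to 212 CPM (0.91, 0.85 to 0.97). Blood endothelial cells went from 90.5 to 217 CPM (log2 ratio 1.26, interval 0.92 to 1.61), but of 0.24 when every cell was given the cell type of highest likelihood. Of these 5 types basal keratinocytes had the lowest Ctrl level, and in AD they and the pericytes or smooth muscle cells did not differ beyond counting error.

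**Figure D3:**
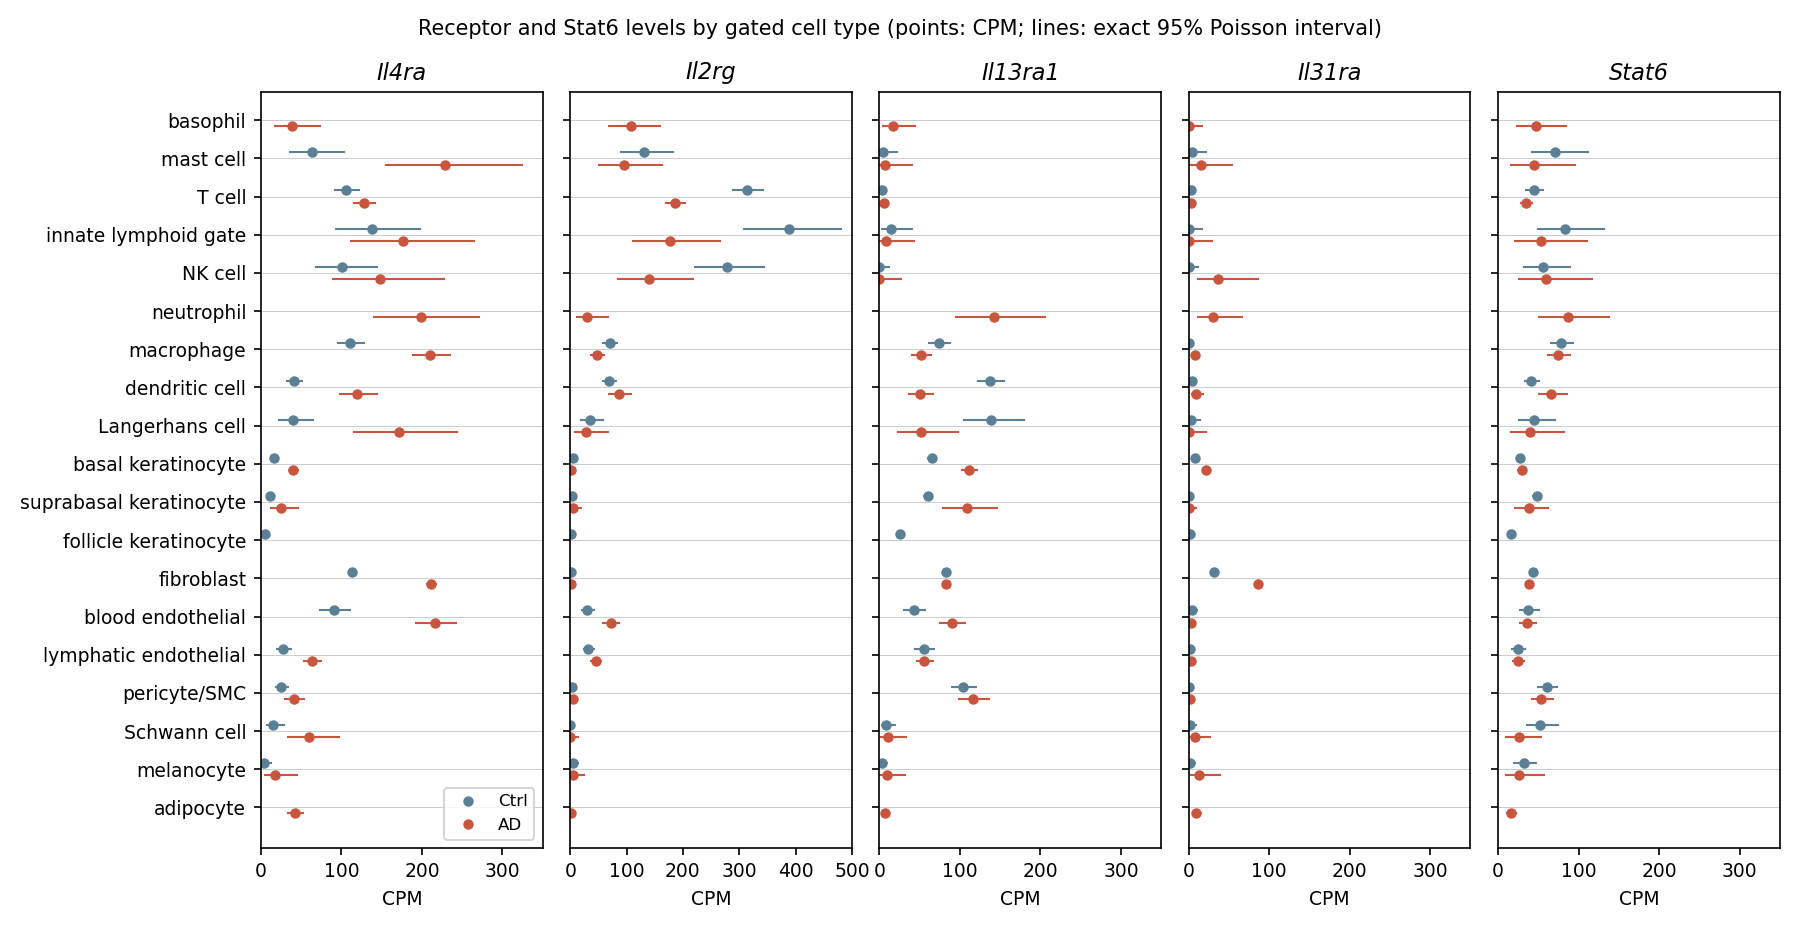
CPM of Il4ra, Il2rg, Il13ra1, Il31ra and Stat6 (x axes) in cell types with at least 13 cells (y axis), with Ctrl in blue and AD in red and lines for exact 95% Poisson intervals. Il4ra in AD was highest in mast cells at 228 CPM, and Il2rg was highest in lymphoid cells, where Il13ra1 was at most 13.8 CPM.

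The partner chains divided the cell types. Il2rg, which completes the type I receptor, was at 314 CPM in Ctrl T cells and 186 CPM in AD T cells, at 130 and 95.7 CPM in mast cells and at 108 CPM in AD basophils. In fibroblasts it stood at 1.94 and 0.607 CPM and in basal keratinocytes at 4.15 and 1.01 CPM. Il13ra1 (ENSMUSG00000017057, chrX:36112110-36171259, plus strand), which completes the type II receptor, showed the reverse, with 2.82 and 5.02 CPM in T cells, 3.95 and 7.36 CPM in mast cells (fibroblast RNA could carry 1.94 and 4.70 CPM of these AD values) and no UMI in the 59 Ctrl and 21 AD NK cells. Macrophages and dendritic cells held both chains, and blood endothelial cells held Il2rg at 29.8 and 72.0 CPM beside Il13ra1.

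Unlike Il4ra, Il13ra1 did not go one way. It was lower in AD dendritic cells, at 49.7 CPM against 137 CPM in Ctrl (log2 ratio −1.47, interval −1.95 to −1.01), and in macrophages, at 51.5 against 74.2 CPM (log2 ratio −0.53, interval −0.95 to −0.11). Langerhans cells had 138 CPM in 57 Ctrl cells and 51.3 CPM in 13 AD cells. It was higher in AD basal keratinocytes, at 65.4 and 111 CPM (log2 ratio 0.77, interval 0.60 to 0.93), and in blood endothelial cells, at 42.4 and 89.6 CPM (log2 ratio 1.08, interval 0.58 to 1.61). The latter was 0.37 with each cell given its type of highest likelihood and 0.53 with the mean of each cell's CPM. Fibroblasts had 82.7 and 82.5 CPM (−0.00, −0.08 to 0.07), lymphatic endothelial cells 54.8 and 55.6 CPM and pericytes or smooth muscle cells 104 and 116 CPM, each with an interval that included 0.

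The dendritic cell gate held different cells in the 2 libraries, which is a fact to set beside its ratios. Its leading genes were Il1b, H2-Ab1, H2-Aa and Cd74 in Ctrl, where it had 273 cells at a median of 7154 UMIs, and Ccr7, Ccl22, Ccl17 and H2-Aa in AD, where it had 65 cells at 13979 UMIs. Whether the lower Il13ra1 lies within 1 kind of dendritic cell was not tested.

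In dendritic cells 6.31% of 8133 genes were at least 2-fold higher and 5.77% at least 2-fold lower, and of 3 members Il4ra was higher and Il13ra1 lower. In macrophages 3.94% of genes were higher and 5.96% lower, and none of 3 members passed 2-fold in either direction. In basal keratinocytes 2.03% of genes were higher and 4.57% lower, and none of 4 members passed, since 10 CPM added to both values brought Il4ra and Il31ra under 2-fold. In fibroblasts 4.01% were higher and 5.62% lower, with 1 of 4 members higher, Il31ra, and in blood endothelial cells 2.13% were higher and 1 of 3 members, Il4ra.

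**Figure D4:**
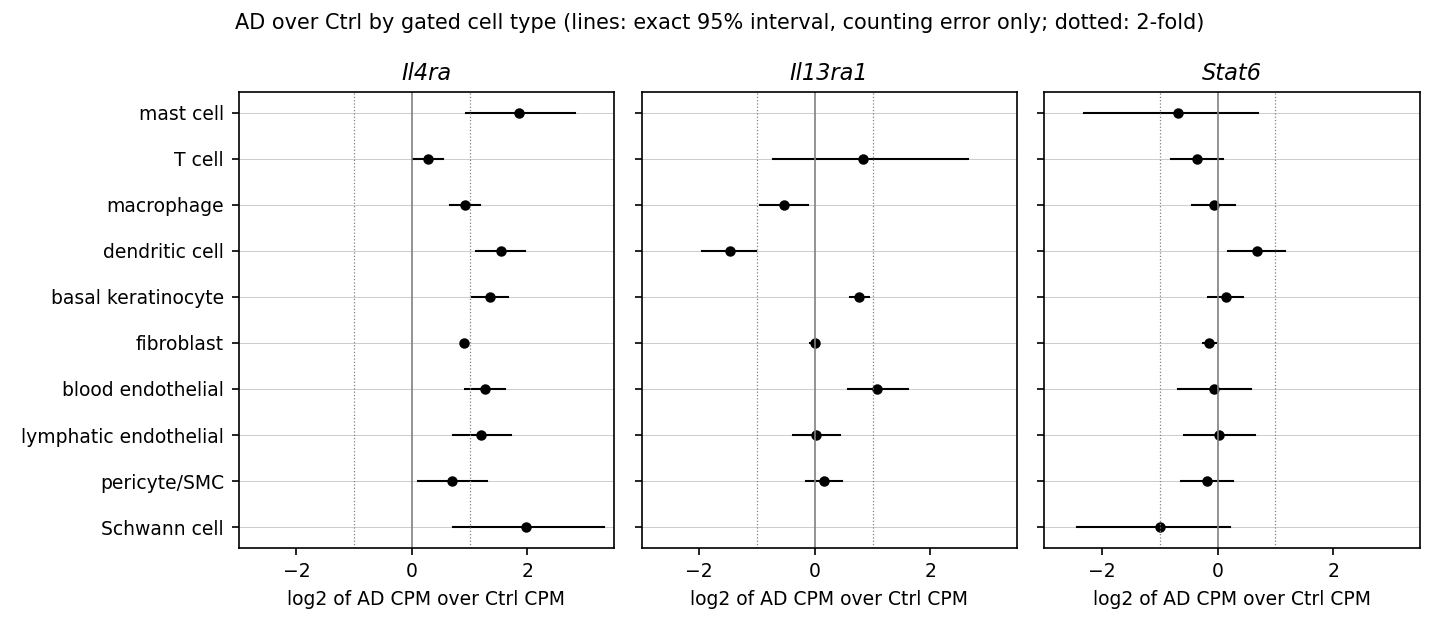
Log2 of AD CPM over Ctrl CPM (x axes) for Il4ra, Il13ra1 and Stat6 in 10 gated cell types (y axis), with lines for exact 95% intervals of counting error and dotted lines at 2-fold. Il4ra lay above 0 in each of the 10, Il13ra1 ran from −1.47 in dendritic cells to 1.08 in blood endothelial cells, and among these 10 types only the dendritic cell and fibroblast intervals of Stat6 left out 0.

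Among gated types, Il31ra (ENSMUSG00000050377, chr13:112519898-112594360, minus strand) was found mostly in fibroblasts and basal keratinocytes. It overlaps Gm3226 on the same strand, so reads in the overlap could not be divided between them. Fibroblasts had 30.9 CPM in Ctrl against 86.1 CPM in AD (log2 ratio 1.48, interval 1.38 to 1.58), with 15.8% and 30.2% of cells with a UMI. This ratio was 1.07 when 4 markers were needed and 1.80 by highest likelihood, and 495 of the 4822 Ctrl and 1465 of the 3037 AD fibroblasts had just the 3 markers the gate asks for. In basal keratinocytes it stood at 7.62 and 21.1 CPM (log2 ratio 1.47, interval 1.03 to 1.91), but of 0.84 over all deposited barcodes, and fibroblast RNA could carry 1.88 CPM of the AD value. Suprabasal keratinocytes had 4 UMIs in 400 Ctrl cells and none in 18 AD cells.

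Of the 3818 Il31ra UMIs in kept AD cells, fibroblasts held 2128 and basal keratinocytes 104. Most of the rest lay in cells that passed no gate or several, so these UMIs were not assigned to a type. In the other gated types Il31ra rested on few UMIs. In AD T cells, at 3.23 CPM, and blood endothelial cells, at 2.82 CPM, it was near the 2.03 and 2.92 CPM that fibroblast RNA could carry. Macrophages had 7.17 CPM against 2.42 carried, from 11 UMIs in 6 of 205 cells, and dendritic cells 8.84 against 2.05, from 8 UMIs. Adipocytes, gated in numbers only in AD (108 cells against 1), had 9.48 CPM against 2.16, from 19 UMIs. The AD levels above 10 CPM came from 5 UMIs in 1 of 21 NK cells (36.9 CPM against 3.67 carried), 6 in 3 neutrophils (30.5 against 5.07), 2 in 1 mast cell (14.7 against 4.91) and 3 in 2 melanocytes (13.2 against 5.12). Il31ra passed 2-fold in NK cells and melanocytes, where 11.5% and 14.8% of all genes did. Its partner Osmr was also higher in AD in the main Il31ra types, at 38.3 and 132 CPM in basal keratinocytes and 77.9 and 218 CPM in fibroblasts, and in pericytes or smooth muscle cells, at 95.3 and 210 CPM, which had 2 Il31ra UMIs in AD.

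Il13ra2 (ENSMUSG00000031289, chrX:147383476-147429192, minus strand), the decoy, was rare in both libraries, with 45 UMIs in Ctrl and 59 in AD. In Ctrl 28 of its UMIs lay in 19 cells that passed no gate. In AD 20 lay in 9 of 158 pericytes or smooth muscle cells, at 15.6 CPM (9.51 to 24.1), against 2 UMIs in 1 of 276 such cells in Ctrl (log2 ratio 3.88, interval 1.84 to 7.02), and 1 of the 9 cells held 7 of the 20. In that type 3.46% of 9129 genes were at least 2-fold higher in AD, and Il13ra2 was the 1 of 4 members to pass. Fibroblasts had 8 and 14 UMIs and basal keratinocytes 5 and 12, and no macrophage, dendritic cell, basophil or mast cell of either library held any.

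Stat6 (ENSMUSG00000002147, chr10:127642986-127660957, plus strand), the factor that both receptors activate, stood at 37.1 CPM (36.0 to 38.3) over the kept Ctrl cells and at 37.1 CPM (35.6 to 38.7) in AD. Among AD cell types with at least 20 cells, leaving out the erythroid gate, it was lowest in adipocytes (interval 10.9 to 22.5 CPM) and highest in neutrophils, at 86.5 CPM (50.4 to 138). Macrophages had 78.7 and 75.0 CPM (log2 ratio −0.07, −0.44 to 0.30), T cells 44.5 and 34.8 CPM (−0.36, −0.80 to 0.09) and basal keratinocytes 27.1 and 29.8 CPM (0.14, −0.16 to 0.43). Dendritic cells had 41.6 and 66.3 CPM (0.67, 0.17 to 1.17) and fibroblasts 43.0 and 39.0 CPM (−0.14, −0.25 to −0.03), and Stat6 overlaps Nab2 on the opposite strand.

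Genes that IL-4 and IL-13 are known to induce through STAT6 were taken as a list of 20. In macrophages 17 had at least 10 CPM, of which 7 were at least 2-fold higher in AD and 4 at least 2-fold lower, with a median log2 ratio of −0.07 after 10 CPM were added, close to −0.05 for all genes. The directions split a set that is often read together as the alternatively activated state: Arg1 (arginase) went from 0.558 to 221 CPM and Chil3 (a chitinase-like protein) from 31.2 to 1037 CPM, whereas Retnla (a resistin-like protein) went from 4558 to 76.3 CPM and the lectin Mgl2 from 592 to 135 CPM. Mgl2 and Clec10a are close copies, so reads may be divided between them. Cells of the macrophage gate had a median of 10 of its 13 markers in Ctrl and 7 in AD. Just the 3 markers needed were counted in 20 of 424 Ctrl and 28 of 205 AD cells. Whether these directions lie within 1 kind of macrophage was not tested.

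In dendritic cells 15 of the list were tested, 9 higher and 4 lower, with a median of 1.44 against −0.05 for all genes. Ccl17, a chemokine that draws T cells, went from 48.4 to 612 CPM and Ccl22, its relative, from 326 to 934 CPM, and both are among the leading genes of the AD gate. Chil3 went from 0 UMIs to 89.5 CPM, and Retnla and Mgl2 were again lower, at 113 and 1.10 CPM and at 755 and 169 CPM. In basal keratinocytes 7 were tested, with Ccl7 higher and Il1rn lower, and in fibroblasts 8, with Cish and Ccl7 higher and Retnla and Postn lower.

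The signals that act before these cytokines were a list of 7, TSLP, IL-33 and IL-25 with their receptors. In basal keratinocytes 2 of them were tested and Tslp, which activates dendritic cells, basophils and T cells, went from 2.22 to 230 CPM (log2 ratio 6.69, interval 6.10 to 7.36), while Il33 stood at 23.4 and 12.6 CPM. In mast cells 4 were tested and 3, Tslp, Il7r and Il1rl1, were at least 2-fold higher, where 9.72% of all genes were. There Il1rl1, the IL-33 receptor, went from 597 to 1531 CPM and Il7r, which pairs with the TSLP receptor, from 130 to 339 CPM. Macrophages had 4 of the list tested, with a median log2 ratio of −0.67. Il7r went up there, from 6.69 to 121 CPM, whereas Tslp went from 59.1 to 11.7 CPM and Il1rl1 from 22.9 to 3.26 CPM. In dendritic cells 3 were tested and Il1rl1 alone passed 2-fold, from 50 UMIs (24.5 CPM) to none. T cells had Il1rl1 at 74.4 and 71.4 CPM, and none of the 3 tested genes of the list passed 2-fold there.

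Of the 9 signalling partners, 7 were tested in mast cells, 2 higher and 2 lower, where 19.0% of all genes were at least 2-fold lower. The mast cells had Csf2rb, the chain common to the IL-3, IL-5 and GM-CSF receptors, at 371 and 1207 CPM and its close copy Csf2rb2 at 134 and 905 CPM, and reads may be divided between them. Il5ra was lower there, with 27 UMIs in Ctrl and 2 in AD. Of 8 other cytokines of type 2 source cells, 6 were tested in T cells, and Il6 was at least 2-fold higher and Areg lower, where 3.6% of all genes were lower. Areg (amphiregulin, an epidermal growth factor) went from 781 to 146 CPM. Il6 went from 13.5 to 43.0 CPM, of which fibroblast RNA could carry 15.0 CPM in AD, and it passed 2-fold in every cell type with a ratio. Of the 9 transcription factors, 7 were tested in T cells and none passed 2-fold, with Gata3, the factor of type 2 helper T cells, at 243 and 310 CPM.

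Across the 35 pairs of cell type and library with at least 20 cells, the genes closest in pattern to each member were ranked by Pearson's r of log2(CPM + 10) among 6072 genes. The points have a library and its depth in common, and r is given as a description. For Il4 they were Il13 (0.95), Cyp11a1 (0.95) and Slc18a2 (0.93), and for Il13 they were Il4 (0.95), Il1rl1 (0.90) and Cyp11a1 (0.87), of which Cyp11a1 and Il1rl1 are gate markers. For Il4ra they were Gch1 (0.78), Tnfrsf1b (0.75) and Man1a (0.75), and for Il13ra1 Stom (0.75), Myof (0.74) and Crybg3 (0.72). Il31ra was closest to the fibroblast genes Pamr1 (0.88), Mmp2 (0.86) and Cyp1b1 (0.85), Il13ra2 to Abcc9 (0.76, a pericyte gate marker), Rgs4 (0.76) and Mnd1 (0.76), and Stat6 to Arpc2 (0.78), Cap1 (0.77) and Cdc42 (0.77).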

How the data were processed

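Single-cell suspensions of Ctrl and AD dorsal skin were run on droplet 3′-end kits. The authors deposited raw UMI counts per gene and cell barcode for each library, made with Cell Ranger against mm10, with no normalization. The file header names Cell Ranger 5.0.0, and the submitters' processing notes name Cell Ranger 3.1.0 and Seurat 5.0. The descriptions of the tissue digest also differ between the sources (collagenase D with dead-cell removal, or collagenase IV with red-cell lysis).

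Barcodes were kept when they had 200 to 6000 detected genes and no more than 10% of UMIs from mitochondrial genes (11399 of 12598 Ctrl and 8179 of 8778 AD barcodes, 105195951 and 61645227 UMIs). In each library a marker counted in a cell when its scaled count reached 0.1 of its high level there, taken as the larger of the 99.8th percentile and 50% of the mean of the 40 highest cells, and not under 0.2 of the pooled level. Gates for 23 cell types were applied, and no kept cell of either library was given to the eosinophil gate. A cell type needed 3 of its markers. Mast cells also needed 2 proteases or receptors specific to them, basophils Mcpt8 and T cells 2 of Cd3e, Cd3d, Cd3g and Trac. An earlier version without these required genes was replaced on cell counts per gate. The fraction of 0.1 was compared with lower ones in a run that also tabulated the members, so 0.1 was kept as the result and 0.05, a basophil gate without Mcpt8 and the removal of the highest basophil are alternatives chosen after seeing the data. No doublet caller was run, and cells that passed several gates were left out. The erythroid gate was left out of comparisons since fibroblast RNA stood at 25.4% of its fibroblast level there in AD and its cells had 23.3% of the library's median UMIs.

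UMIs were summed per cell type and library and given as CPM with exact Poisson intervals, shares with exact binomial (Clopper-Pearson) intervals and AD over Ctrl ratios with the exact conditional interval, all at 95% and for counting error only, since PCR and capture are not covered. A count of 0 was given the limit of 3 counts. Ratios were formed for types with at least 20 cells in each library. The share of all genes of at least 10 CPM in either library that differed 2-fold with 10 CPM added gave the background. Shares of cells were also computed for a draw of 1000 UMIs per cell, and RNA carried from fibroblasts by the median level of 5 fibroblast markers. Named were the members, list genes by the 2 highest and 2 lowest ratios, and the 3 genes most like each member, and further list genes (Ccl22, Il33, Osmr, Il2rg, Gata3 and Areg among them) were named after their values were seen. The members and lists were chosen with earlier results of these data known. Of 33904 gene identifiers, 32475 were in GENCODE M21. Python 3.11.15, numpy 2.4.6, scipy 1.17.1, pandas 2.3.3 and matplotlib 3.10.9 were used, and the ratio intervals were checked on simulated data.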

Additional observations from a re-analysis of the deposited data

Results flagged for a closer look

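Of the barcodes outside the filter, 599 came from AD and 1199 from Ctrl, and they enter no value of the report except those given for all deposited barcodes. Deposited UMIs numbered 76106062 in AD and 125184653 in Ctrl, against 61645227 and 105195951 in kept cells, so the removed barcodes were deeper on average. They were singled out because 3 members stood above their level in the Ctrl barcodes left out the same way. Il4ra stood at 41.6 CPM in AD against 16.4 CPM in Ctrl, and Il13ra1 at 67.7 CPM against 35.6 CPM. Il13ra2 stood at 2.28 CPM against 0.750 CPM, and 33 of the 92 deposited AD UMIs of this gene, 35.9%, lay in barcodes that the filter removed. Of the deposited AD Il13ra1 UMIs 18.3% were removed, and basal keratinocytes held 521 of these 979. By the marker gates 113 of the removed AD barcodes were basal keratinocytes, 55 were in the erythroid gate and 277 passed no gate. For the removed Ctrl barcodes the same counts were 161, 116 and 520. The removed AD barcodes held no Il4 UMI and 2 Il13 UMIs.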

How the results depend on the processing

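Over 28 values and 211 alternatives, 182 moved by less than counting error and 29 by more. Of these values 17 were log2 ratios, and none of those changed sign, whereas shares and levels have no direction to change. The basophil share of AD Il4, 64.0%, was 58.1% over all deposited barcodes, 68.6% with each cell given its type of highest likelihood, 35.1% with a marker counted at 0.05 of its high level, 67.0% without the need for Mcpt8 and 56.0% without the highest basophil. In the same order the share of AD Il13, 58.8%, was 46.9%, 73.3%, 46.3%, 68.6% and 52.9%. The T cell share of Ctrl Il13, 35.3%, was 48.0% by likelihood. With the mean of each cell's CPM, Il4ra in AD macrophages was 259 CPM (log2 ratio 1.23) and Il13ra1 in AD basal keratinocytes 123 CPM (log2 ratio 0.96), and the latter was 97.0 CPM (log2 ratio 0.55) over all deposited barcodes. At 0.05 of the high level the log2 ratios in basal keratinocytes were 1.70 for Il4ra and 1.04 for Il13ra1, and by likelihood Il4ra in blood endothelial cells was 0.24. The cause of these moves was not tested. The alternatives at 0.05, without Mcpt8 and without the highest basophil were chosen after seeing the data. No paired analysis was possible because each condition had 1 library, and no library could be left out for the same reason. Depth limits Il5, Il31 and Il13ra2 most, with 14, 3 and 104 UMIs over both libraries.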

Other observations

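The AD basophils held other cytokine transcripts at high levels, named here after their values were seen. Il6, an inflammatory cytokine, had 1955 UMIs in 39 of 39 cells at 8416 CPM (8047 to 8797), and Csf1, the macrophage growth factor, had 350 UMIs in 35 cells at 1507 CPM. Gata2, the GATA factor of basophils and mast cells and a marker of the basophil gate, stood at 2824 CPM. Gata3, the GATA factor of type 2 lymphocytes, had no UMI in the 39 cells. Il1rl1, the IL-33 receptor, had 115 UMIs in 29 cells at 495 CPM, and the 2 close copies Csf2rb and Csf2rb2 stood at 1666 and 1188 CPM. Serpinb2, Cish and Socs1, which belong to the list of genes induced through STAT6, stood at 637, 306 and 142 CPM in these cells, and Retnla, Chil3, Mrc1, Clec10a, Mgl2 and Il1rn of the same list had no UMI.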
